A study of Mus musculus with 24 samples.

Results

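Cholesterol and fatty acid synthesis genes were examined as a group of 32 listed mouse genes, chosen by name as enzymes and regulators of sterol and fatty acid synthesis. Of these, 31 had a probe set that carried their symbol alone among the 19938 genes measured, and Acat2 was not analysed here for want of one. Each of the 31 genes was read on 1 probe set, the brightest over all arrays where there were several, which concerned Idi1, Fdft1 and Acaca. They comprised 15 enzymes of the sterol pathway, 6 regulators and carriers (Insig1, Insig2, Srebf1, Srebf2, Scap and Stard4) and 10 enzymes that make, elongate or desaturate fatty acids.

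Cells build cholesterol from acetyl-CoA through mevalonate and squalene, and build saturated fatty acids from acetyl-CoA and malonyl-CoA before elongases and desaturases modify them. The transcription factors SREBP1 and SREBP2, products of Srebf1 and Srebf2, switch on most of these enzymes. SCAP escorts them from the endoplasmic reticulum to the Golgi for activation when sterols are scarce, and INSIG proteins hold the complex back when sterols are abundant. B lineage cells draw on both pathways for membrane when they proliferate.

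RNA of 24 mouse samples was measured, 1 Affymetrix gene array each. The leukaemia set held tumour-bearing marrow of 7 Sca1-BCR/ABLp190+Pax5+/- mice (Pax5+/- leukaemias), marrow of 2 Sca1-BCR/ABLp190 mice (BCR/ABL-only leukaemias) and B cells carrying B220 from the marrow of 5 wild-type animals (B220+ cells). Pro-B and pre-B cells formed the precursor set, taken from marrow before leukaemia in 3 mice of the first genotype (Pax5+/- precursors) and 3 of the second (BCR/ABL-only precursors), and from wild-type mice (4 arrays, where the design text counts 3 mice). The BCR/ABLp190 oncogene is driven by the Sca1 promoter, which is active in blood stem and progenitor cells, the Pax5 heterozygotes lack 1 copy of a transcription factor that maintains B cell identity, and ages were not given in the sources used here.

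Levels are the deposited log2 values, so a difference of 1 is a doubling, and changes are log2 differences ± SE from limma. A change was called at an adjusted p under 0.05 (limma, Benjamini-Hochberg over 19938 genes), and the verbs rose and fell are used only for calls. Within an array the level of one gene was not set against that of another, since probes differ in brightness. The number of arrays limits the precision, above all with 2 BCR/ABL-only leukaemias. The labels name no sort for the leukaemic marrow, so fewer cells of a type and less RNA per cell cannot be told apart there.

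The arrays also carried signals of other cells and of sex. The mean level of 9 B lineage markers was 8.58 to 10.29 in the Pax5+/- leukaemias, 8.57 and 8.67 in the BCR/ABL-only leukaemias and 11.83 to 12.08 in B220+ cells. In the BCR/ABL-only leukaemias the 12 neutrophil and granulocyte precursor markers averaged 11.54 and 12.12, against 7.05 to 9.76 in B220+ cells, and the 6 erythroid markers averaged 12.02 in the first of them. Against B220+ cells these 2 arrays were thus higher in granulocyte markers and lower in B lineage markers, which limits every result on them. The targeted gene Pax5 lay between 8.37 and 12.06 in the Pax5+/- leukaemias, between 8.10 and 8.39 in the BCR/ABL-only leukaemias and between 12.20 and 12.44 in B220+ cells. In the precursors it lay between 11.58 and 12 (Pax5+/-), 11.93 and 12.19 (BCR/ABL-only) and 11.81 and 12.02 (wild type), ranges that overlap, and the sources used here do not give whether its probe set covers the disrupted part of the gene. The female marker Xist was above a level of 10 on all 9 wild-type arrays, on 0 of 3 BCR/ABL-only precursors, on 1 of 3 Pax5+/- precursors and on 4 of 9 leukaemias.

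Promoter windows of 300 bases around the start were at hand for 24 of the genes from RefSeq (GRCm38.p6). A sterol response element, spelt TCACNCCAC and read on both strands, occurred in 1 of the 33 windows of these genes (3.03%), that of Hmgcs1, against 1.24% of 32851 windows in all. CCAAT, the site of the NF-Y factor that works beside SREBP, occurred in 63.6% of the windows of these genes and 37.4% of all windows. The GC box GGGCGG was found in 72.7% against 35.7%, and the E-box CACGTG in 21.2% against 7.15%. These counts describe letters only. The 3 windows shown belong to the sterol enzymes with the smallest adjusted p in the Pax5+/- precursors, described further on. Capitals mark the sterol element and CCAAT on either strand (ATTGG is CCAAT read on the other strand). The windows lie at chr13:119690101-119690400 on the plus strand (Hmgcs1, the synthase that makes HMG-CoA), chr13:8885356-8885655 on the plus strand (Idi1, which isomerises isopentenyl diphosphate) and chr5:4104648-4104947 on the minus strand (Cyp51, the lanosterol demethylase).
Hmgcs1: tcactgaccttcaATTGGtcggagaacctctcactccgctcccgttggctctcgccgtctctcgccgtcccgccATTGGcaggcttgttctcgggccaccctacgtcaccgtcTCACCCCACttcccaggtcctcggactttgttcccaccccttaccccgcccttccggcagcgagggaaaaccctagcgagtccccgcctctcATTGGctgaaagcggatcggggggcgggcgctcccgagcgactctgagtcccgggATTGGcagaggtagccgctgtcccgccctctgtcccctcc
Idi1: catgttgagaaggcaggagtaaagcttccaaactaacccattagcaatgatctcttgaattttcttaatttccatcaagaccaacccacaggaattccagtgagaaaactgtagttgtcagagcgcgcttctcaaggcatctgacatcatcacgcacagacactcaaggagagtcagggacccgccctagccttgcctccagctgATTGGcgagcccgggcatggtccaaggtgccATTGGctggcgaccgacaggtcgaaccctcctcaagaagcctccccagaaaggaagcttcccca
Cyp51: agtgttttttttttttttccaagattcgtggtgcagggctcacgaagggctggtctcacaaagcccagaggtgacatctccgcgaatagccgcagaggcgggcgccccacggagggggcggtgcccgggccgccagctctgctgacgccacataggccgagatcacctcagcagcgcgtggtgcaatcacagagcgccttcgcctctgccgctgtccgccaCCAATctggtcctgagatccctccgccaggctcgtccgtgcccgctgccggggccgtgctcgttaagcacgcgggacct

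**Figure D1:**
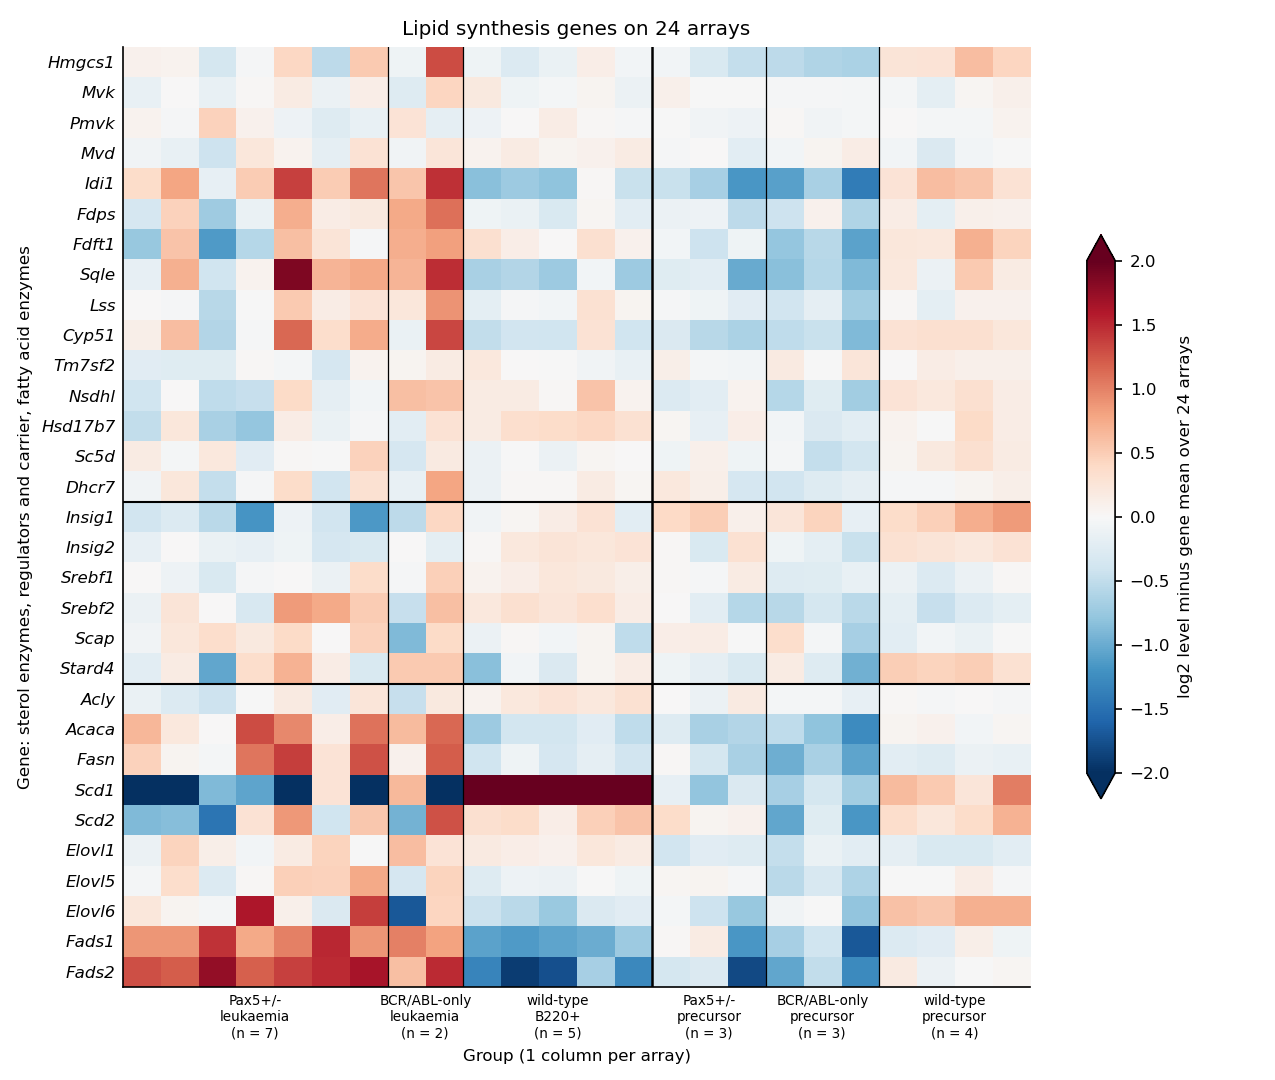
Level of each of the 31 genes (rows, by role) on each of the 24 arrays (columns, by group), as log2 level minus the gene's mean over all arrays, with colours capped at 2 in either direction. Fads1 and Fads2 are above their means on all 9 leukaemias, Scd1 stands far above its mean in B220+ cells, and Idi1, Sqle and Cyp51 are below theirs in both kinds of oncogene-bearing precursor.

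In the Pax5+/- leukaemias the enzymes of polyunsaturated fatty acid synthesis Fads1 and Fads2 rose against B220+ cells, 4.14-fold and 7.02-fold, while Scd1, which makes monounsaturated fatty acids, fell 23.5-fold. The enzymes that commit carbon to fatty acids, Acaca and Fasn, rose too. Of 15 sterol enzymes 2 rose and 1 fell, of 10 fatty acid enzymes 4 rose and 1 fell, and of 6 regulators and carriers 0 rose and 2 fell. Of the 31 genes 6 rose, where 12.9% of all genes did, and 4 fell, where 18.9% of all genes did. These shares lie near those of all genes. The median change over the 31 was 0.03, and over all genes -0.06. Centring the arrays on their medians in place of the deposited scaling moved the median of all genes by a further -0.14 and gave 6 higher and 8 lower.

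Fads2, the first desaturase of the polyunsaturated pathway, had a lowest, median and highest level of 11.05, 11.23 and 11.61 in the Pax5+/- leukaemias, against 8.54, 7.96, 8.09, 9.19 and 8.57 in B220+ cells. Fads1, which acts after it, had 10.44, 10.58 and 11.19 in the Pax5+/- leukaemias, against 8.62, 8.55, 8.63, 8.70 and 8.96 in B220+ cells. For both genes every leukaemia lay above every B220+ array. The changes were 2.81 ± 0.21 for Fads2 (adjusted p = 1.5e-06) and 2.05 ± 0.14 for Fads1 (adjusted p = 6.02e-07). Acaca, the carboxylase that makes malonyl-CoA, had 8.58, 9.24 and 9.87 in the Pax5+/- leukaemias, against 7.84, 8.20, 8.20, 8.34 and 8.06 in B220+ cells. The groups did not overlap, and the change was 1.07 ± 0.23 (adjusted p = 0.00312). Fasn, the synthase that builds the chain, differed by 0.92 ± 0.28 (adjusted p = 0.0232), with the levels again apart.

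Scd1, a desaturase that introduces the first double bond into saturated fatty acids, had 6.32, 7.58 and 9.91 in the Pax5+/- leukaemias, against 12.31, 12.59, 12.56, 12.49 and 12.39 in B220+ cells. The B220+ arrays were close together and the leukaemias spread over more than 3 log2 units, all of them below. The change was -4.56 ± 0.59 (adjusted p = 0.000103). Its paralogue Scd2 averaged 9.91 in the Pax5+/- leukaemias and 10.57 in B220+ cells, a change of -0.65 ± 0.43 that was not called (adjusted p = 0.265). Elovl6, which lengthens the products of Fasn, changed by 0.89 ± 0.39 (adjusted p = 0.103), and Acly, which supplies cytosolic acetyl-CoA, by -0.31 ± 0.13 (adjusted p = 0.0899). Elovl1 and Elovl5 were not called either.

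Among sterol enzymes Idi1 had 8.05, 8.72 and 9.57 in the Pax5+/- leukaemias, against 7.37, 7.48, 7.41, 8.24 and 7.76 in B220+ cells. Only the lowest leukaemia lay under the highest B220+ array, and the change was 1.19 ± 0.26 (adjusted p = 0.00349). Sqle, the squalene epoxidase that is a rate-limiting step, rose by 1.06 ± 0.33 (adjusted p = 0.0287). Hsd17b7, a reductase late in the pathway, had 7.75, 8.39 and 8.75 in the Pax5+/- leukaemias, against 8.69, 8.87, 8.90, 8.95 and 8.84 in B220+ cells. It fell by 0.57 ± 0.17 on the log2 scale (adjusted p = 0.0252), though the highest leukaemia reached the range of the B220+ cells.

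The 2 INSIG genes, which encode the proteins that retain SCAP, were lower. Insig2 had 8.38, 8.54 and 8.72 in the Pax5+/- leukaemias, against 8.73, 8.92, 8.97, 8.94 and 8.98 in B220+ cells, a change of -0.37 ± 0.0689 (adjusted p = 0.00144). Insig1, itself a target of SREBP, had 8.69, 9.5 and 9.78 in the Pax5+/- leukaemias, against 9.81, 9.92, 10.02, 10.16 and 9.66 in B220+ cells. The Insig1 groups overlapped by a single pair of arrays, and the change was -0.61 ± 0.22 (adjusted p = 0.0459). Srebf1 (-0.17 ± 0.11), Srebf2 (0.03 ± 0.22), Scap (0.34 ± 0.19) and Stard4 (0.17 ± 0.26), a sterol carrier, were not called, with adjusted p from 0.178 to 0.922.

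Fads1, Fads2, Scd1, Acaca, Idi1 and Insig2 stayed called when any 1 of the 12 arrays was left out. Fasn lost its call without B220+ array 1, 3 or 5 (adjusted p 0.0507 to 0.0518), Hsd17b7 without B220+ array 2, 3 or 4 (0.0531 to 0.0552), Sqle without leukaemia 2 or B220+ array 1, 2, 3 or 5 (0.0502 to 0.0643), and Insig1 without any array but leukaemia 2 or 5 (0.0511 to 0.0961). Without B220+ array 3 the calls came to 6. In these leukaemias 10 of 11 macrophage markers, 8 of 10 stromal and endothelial markers and 4 of 5 megakaryocyte markers rose, 8 of 9 B lineage markers fell, and 12 of 14 cell cycle genes rose. Of 8 T and NK markers 2, Cd4 and Cd3g, rose, and 1 stromal and endothelial marker, Pecam1, fell. Of 7 adipocyte markers Fabp4 rose (3.79 ± 0.47), which macrophages and endothelium also express, and Plin1 fell (-0.33 ± 0.11), with a list mean of 6.21 to 6.92 against 6.10 to 6.21 in B220+ cells. The part of these signals in the lipid gene changes was not tested.

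The BCR/ABL-only leukaemias, set against the same B220+ arrays, showed higher Fads1 and Fads2, lower Scd1 and higher Idi1, Sqle, Fdps and Acaca. Of the 31 genes 6 rose (9.48% of all genes did) and 1 fell (11.9% of all genes did). The median was 0.18, against -0.073 over all genes. Sterol enzymes made up 3 of the rises. Of the regulators and carriers 0 of 6 were called in limma, with 1 of them, Insig2, at an unadjusted p under 0.05 (-0.29 ± 0.0985, adjusted p = 0.0508).

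Fads2 had 10.46 and 11.34 in the BCR/ABL-only leukaemias, both above the highest B220+ array at 9.19, and changed by 2.43 ± 0.30 (adjusted p = 0.000155). Fads1 had 10.70 and 10.49, above the highest B220+ array at 8.96, and changed by 1.90 ± 0.20 (adjusted p = 4.47e-05). Leaving out 1 of the 2 BCR/ABL-only leukaemias leaves a lone array, here and in every later comparison with them, which is then assumed to vary like the other groups. With that assumption both calls stood without either leukaemia. Idi1 had 8.77 and 9.67 in the BCR/ABL-only leukaemias, against at most 8.24 in B220+ cells, a change of 1.57 ± 0.37 (adjusted p = 0.00912). Acaca had 9.20 and 9.72, against at most 8.34 in B220+ cells, a change of 1.34 ± 0.32 (adjusted p = 0.011). Leukaemia 2 was the higher of the pair for Fads2, Idi1 and Acaca and the lower for Fads1.

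Scd1 had 10.29 and 7.53 in the BCR/ABL-only leukaemias, against at least 12.31 in B220+ cells, and changed by -3.56 ± 0.84 (adjusted p = 0.00999). Fdps, which makes farnesyl diphosphate, rose by 1.06 ± 0.29 (adjusted p = 0.0209) and Sqle by 1.63 ± 0.47 (adjusted p = 0.0282). Without leukaemia 2 the count fell to 4, which included Scap (-0.77, adjusted p = 0.024) and Acly (-0.67, adjusted p = 0.0316) as lower on the lone array left, and Scd1 (-2.17, adjusted p = 0.13), Idi1 (1.12, adjusted p = 0.0985), Acaca (1.08, adjusted p = 0.0879), Fdps and Sqle were no longer called. Fdps and Sqle were also lost without leukaemia 1, and Sqle without B220+ array 2, 3 or 5 (adjusted p from 0.0515 to 0.186 for Sqle and from 0.0625 to 0.124 for Fdps). In this comparison 8 of 12 neutrophil markers, 6 of 11 macrophage markers, 8 of 10 stromal and endothelial markers, 3 of 5 megakaryocyte markers and 12 of 14 cell cycle genes rose, and 9 of 9 B lineage markers fell. Of 7 adipocyte markers Fabp4 (3.64 ± 0.68) and Adipoq (1.76 ± 0.43) rose, with a list mean of 7.32 and 6.55 in the BCR/ABL-only leukaemias, against 6.10 to 6.21 in B220+ cells. The part of these signals in the result was not tested. With array weights 3 of the 31 genes were called.

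**Figure D2:**
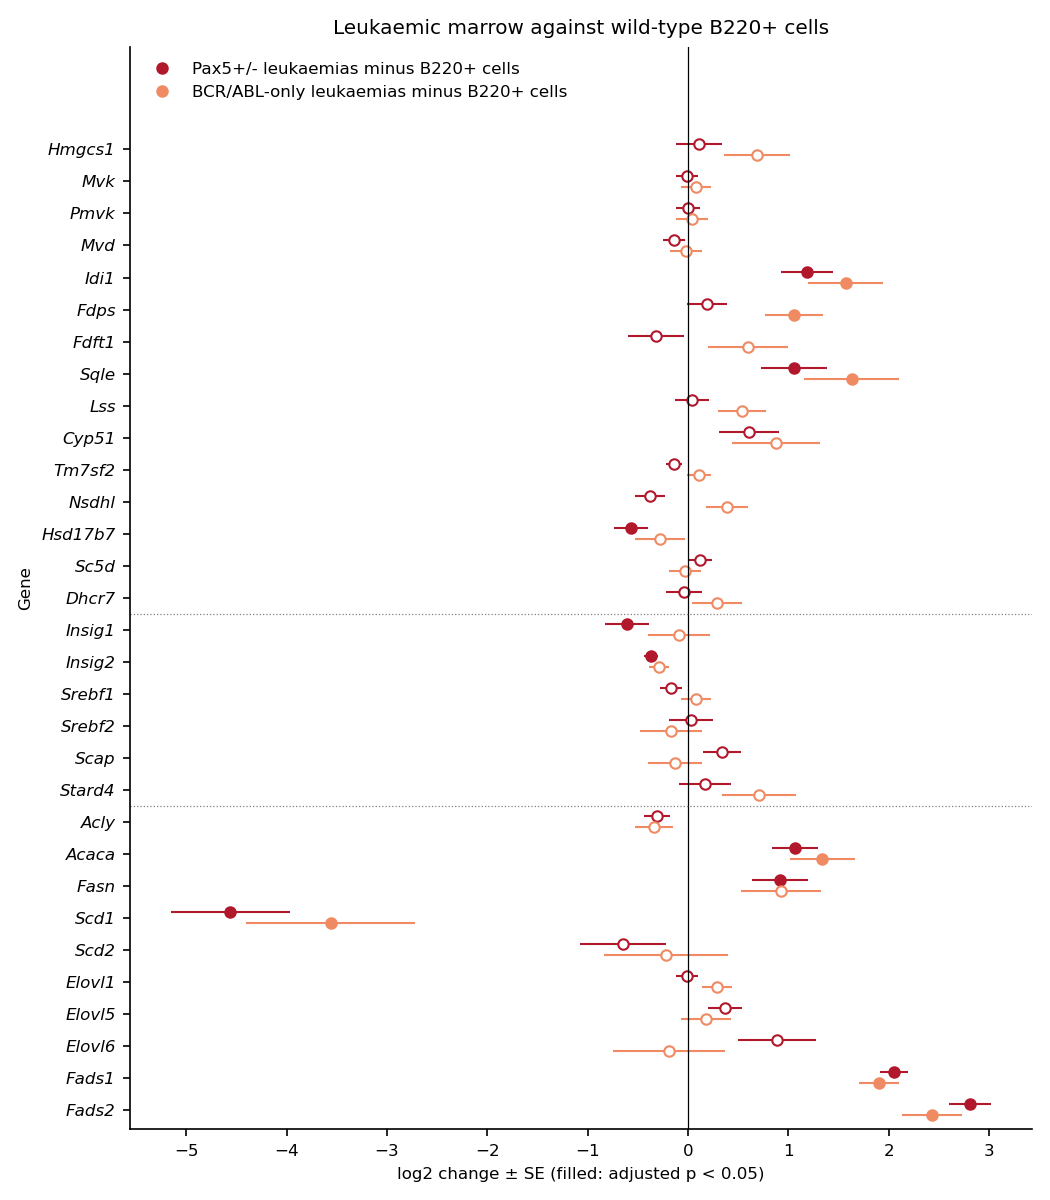
Change of each of the 31 genes in Pax5+/- leukaemias (red) and BCR/ABL-only leukaemias (orange) minus B220+ cells, in log2 units with SE bars, where filled points are called at an adjusted p under 0.05. Fads1 and Fads2 lie furthest to the right and Scd1 furthest to the left in both.

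Between the leukaemias, Pax5+/- minus BCR/ABL-only, limma called 0 of the 31 genes, with 5 at an unadjusted p under 0.05, where 13.9% of all genes had such a p. Over all genes 0.712% rose and 1.16% fell. The changes of 23 of the 31 were negative, 14 of them among the 15 sterol enzymes, and the median was -0.26. Nsdhl, a decarboxylating dehydrogenase of the sterol pathway, averaged 8.80 in the Pax5+/- leukaemias and 9.56 in the BCR/ABL-only leukaemias, and its change of -0.76 ± 0.20 had the smallest adjusted p, 0.0868. Fdft1, the squalene synthase, changed by -0.92 ± 0.38 (adjusted p = 0.287) and Fdps by -0.88 ± 0.28 (adjusted p = 0.154). Without Pax5+/- leukaemia 5, Nsdhl was called (-0.86, adjusted p = 0.0192), and without BCR/ABL-only leukaemia 2, Scap (1.11, adjusted p = 0.00596) and Elovl6 (2.13, adjusted p = 0.0367) were. Between these groups 7 of 12 neutrophil markers fell, with Pax5+/- arrays at 7.05 to 9.66 and BCR/ABL-only arrays at 11.54 and 12.12. Of 9 B lineage markers 1, Cd79b, rose. The part of these signals was not tested.

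In the BCR/ABL-only precursors sterol and fatty acid enzymes fell together against wild-type precursors. Of the 31 genes 17 fell, where 15.5% of all genes did, and 0 rose, where 11.6% of all genes did. The falls took in 9 of 15 sterol enzymes, 2 of 6 regulators and carriers and 6 of 10 fatty acid enzymes, from the entry of the sterol pathway (Hmgcs1) through squalene (Fdft1, Sqle) to its late steps (Cyp51, Nsdhl, Sc5d). The median change was -0.51, against 0.037 over all genes, and 28 of 31 changes were negative. Srebf1, Srebf2 and Scap were not called.

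Hmgcs1 had 8.39, 8.31 and 8.27 in the BCR/ABL-only precursors, against 9.17, 9.19, 9.53 and 9.34 in wild-type precursors. Cyp51 had 7.02, 7.08 and 6.64, against 7.82, 7.85, 7.85 and 7.76 in wild-type precursors. Fdft1 had 8.41, 8.62 and 8.10, against 9.41, 9.39, 9.89 and 9.62 in wild-type precursors. For all 3 genes each oncogene-bearing array lay well below each wild-type array. The changes were -0.99 ± 0.11 for Hmgcs1 (adjusted p = 0.00236), -0.91 ± 0.11 for Cyp51 (adjusted p = 0.00276) and -1.20 ± 0.16 for Fdft1 (adjusted p = 0.00303). Idi1 had 7.13, 7.56 and 6.81 in the BCR/ABL-only precursors, against 8.48, 8.82, 8.77 and 8.5 in wild-type precursors, a change of -1.48 ± 0.20 (adjusted p = 0.00316) that was the largest of the 31.

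Further along the pathway Sqle fell by 0.95 ± 0.20 on the log2 scale (adjusted p = 0.0117), Nsdhl by 0.74 ± 0.12 (adjusted p = 0.00442) and Sc5d, which acts near the end, by 0.48 ± 0.11 (adjusted p = 0.0131). Lss, the cyclase that makes lanosterol, fell by 0.42 ± 0.12 (adjusted p = 0.0297) and Hsd17b7 by 0.33 ± 0.11 (adjusted p = 0.0475). The 3 enzymes between Hmgcs1 and Idi1 that process mevalonate did not follow: Mvk changed by 0.00 ± 0.0737, Pmvk by -0.03 ± 0.0507 and Mvd by 0.15 ± 0.0886 (adjusted p from 0.229 to 0.965). Fdps (-0.35 ± 0.17), Dhcr7 (-0.31 ± 0.12) and Tm7sf2 (0.04 ± 0.0753) were not called either.

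Among fatty acid enzymes Scd2, the desaturase, had 9.15, 9.94 and 9.03 in the BCR/ABL-only precursors, against 10.54, 10.42, 10.56 and 10.88 in wild-type precursors, and changed by -1.22 ± 0.21 (adjusted p = 0.00549). Scd1 changed by -1.17 ± 0.20 (adjusted p = 0.00558), Acaca by -0.88 ± 0.16 (adjusted p = 0.00652) and Elovl6 by -0.93 ± 0.20 (adjusted p = 0.0127). Fasn (-0.71 ± 0.15, adjusted p = 0.0114) and Elovl5, an elongase of polyunsaturated fatty acids (-0.52 ± 0.0788, adjusted p = 0.00404), fell as well. Fads2 (-0.96 ± 0.34, adjusted p = 0.0596) and Fads1 (-0.80 ± 0.36, adjusted p = 0.114) were not called, although each BCR/ABL-only array lay below each wild-type array. Fads2 was called with dim genes left out (adjusted p = 0.0432), with array weights (0.0272) and with the compared groups alone (0.00636).

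Insig2 had 8.63, 8.52 and 8.26 in the BCR/ABL-only precursors, against 9.02, 8.96, 8.92 and 9.0 in wild-type precursors, and changed by -0.51 ± 0.13 (adjusted p = 0.0216). The carrier Stard4 changed by -0.78 ± 0.21 (adjusted p = 0.0251), and Insig1 by -0.43 ± 0.17 (adjusted p = 0.078, not called). Srebf1 had 8.26, 8.28 and 8.37 in the BCR/ABL-only precursors, against 8.41, 8.24, 8.41 and 8.54 in wild-type precursors. Srebf2 had 9.52, 9.72 and 9.53, against 9.88, 9.62, 9.80 and 9.88 in wild-type precursors. The groups of both overlapped, with changes of -0.09 ± 0.0793 and -0.20 ± 0.13. Scap ranged from 9.43 to 10.44 in the BCR/ABL-only precursors, around the wild-type range of 9.88 to 10.08.

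With each of the 7 arrays left out in turn the count lay between 13 and 17, and 12 of the 17 genes stayed called throughout. Hsd17b7, Lss, Stard4, Insig2 and Sc5d did not. Sc5d lost its call without BCR/ABL-only array 3 (adjusted p = 0.0532), Insig2 without that array or wild-type array 1 or 2 (0.0516 to 0.0847), Stard4 without BCR/ABL-only array 2 or wild-type array 1, 2 or 3 (0.0546 to 0.0643), Lss without BCR/ABL-only array 3 or wild-type array 1, 3 or 4 (0.0567 to 0.0999) and Hsd17b7 without any array but BCR/ABL-only array 1 (0.0519 to 0.14). Under cyclic loess scaling 12 genes were called, all lower, and Fasn (-0.49, adjusted p = 0.076), Stard4, Insig2, Sc5d and Hsd17b7 were lost. The 14 cell cycle genes averaged 9.68 to 10.70 on the BCR/ABL-only arrays and 11.20 to 11.33 on the wild-type arrays, and 5 of them fell. The 8 T and NK cell markers averaged 6.87 to 7.69 against 8.08 to 8.56, and 5 fell. Of 10 stromal and endothelial markers 4 rose and 1 fell, with all list means between 6.91 and 7.18, of 9 B lineage markers 1 rose and 3 fell, and of 7 adipocyte markers 1 rose. Xist was 6.24 to 6.49 against 12.49 to 12.70. The part of these signals in the lipid gene changes was not tested, and sex and genotype cannot be told apart in this contrast.

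In the Pax5+/- precursors 5 of the 31 genes fell against wild-type precursors, where 2.94% of all genes did, and 0 rose, where 1.23% of all genes did. They were the sterol enzymes Cyp51, Hmgcs1 and Idi1 and the fatty acid enzymes Scd1 and Elovl6. The contrast shares its wild-type arrays with that of the BCR/ABL-only precursors. The median was -0.21, against 0.029 over all genes, and 25 of 31 changes were negative. Of the regulators and carriers 0 of 6 were called in limma, with 1 at an unadjusted p under 0.05.

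Cyp51 had 7.24, 6.98 and 6.89 in the Pax5+/- precursors, against 7.82, 7.85, 7.85 and 7.76 in wild-type precursors, and changed by -0.79 ± 0.11 (adjusted p = 0.0143). Hmgcs1 had 8.85, 8.61 and 8.43, against 9.17, 9.19, 9.53 and 9.34 in wild-type precursors, a change of -0.68 ± 0.11 (adjusted p = 0.0182). Idi1 had 7.76, 7.54 and 7.05, against 8.48, 8.82, 8.77 and 8.5 in wild-type precursors, a change of -1.20 ± 0.20 (adjusted p = 0.0203). For these 3 genes the groups were apart. Scd1 had 9.48, 8.85 and 9.36 in the Pax5+/- precursors, against 10.27, 10.16, 9.88 and 10.66 in wild-type precursors, a change of -1.01 ± 0.20 (adjusted p = 0.0288), and Elovl6 changed by -1.04 ± 0.20 (adjusted p = 0.0292).

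Several other enzymes were lower without a call, among them Fdft1 (-0.57 ± 0.16, adjusted p = 0.0715), Sqle (-0.68 ± 0.20, adjusted p = 0.0906), Nsdhl (-0.38 ± 0.12, adjusted p = 0.0906) and Acaca (-0.53 ± 0.16, adjusted p = 0.0891). Fasn (-0.14 ± 0.15), Scd2 (-0.24 ± 0.21) and Elovl5 (0.00 ± 0.0788) had adjusted p from 0.499 to 0.976 here. Srebf1 had 8.54, 8.49 and 8.69 in the Pax5+/- precursors, against 8.41, 8.24, 8.41 and 8.54 in wild-type precursors (0.18 ± 0.0793, adjusted p = 0.219). Srebf2 changed by 0.02 ± 0.13, Scap by 0.20 ± 0.19, Insig1 by -0.27 ± 0.17 and Insig2 by -0.26 ± 0.13.

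The calls in the Pax5+/- precursors rest on few arrays. Without wild-type array 2 or 3 there were 0 calls in limma. Without wild-type array 1 there were 2, with Idi1, Scd1 and Elovl6 lost, without Pax5+/- array 2 there were 3, with Scd1 and Elovl6 lost, and Elovl6 was also lost without wild-type array 4. Lost calls had adjusted p from 0.0522 to 0.0923, and with any 1 array left out the changes of the 5 genes lay between -1.35 and -0.58. Without Pax5+/- array 3, Nsdhl was called as well (adjusted p = 0.0458). With array weights 11 genes were called, all lower, with Fdft1, Sqle, Nsdhl, Insig2, Stard4 and Acaca added. The share of all genes called under array weights is not given here. The 14 cell cycle genes averaged 9.35 to 10.82 on the Pax5+/- arrays and 11.20 to 11.33 on the wild-type arrays, with 0 of 14 called in limma, and 3 of 8 T and NK markers and 1 of 6 erythroid markers fell. Xist was above a level of 10 on 1 of 3 Pax5+/- and 4 of 4 wild-type arrays, so sex was not balanced between the groups. The part of all these signals in the result was not tested.

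**Figure D3:**
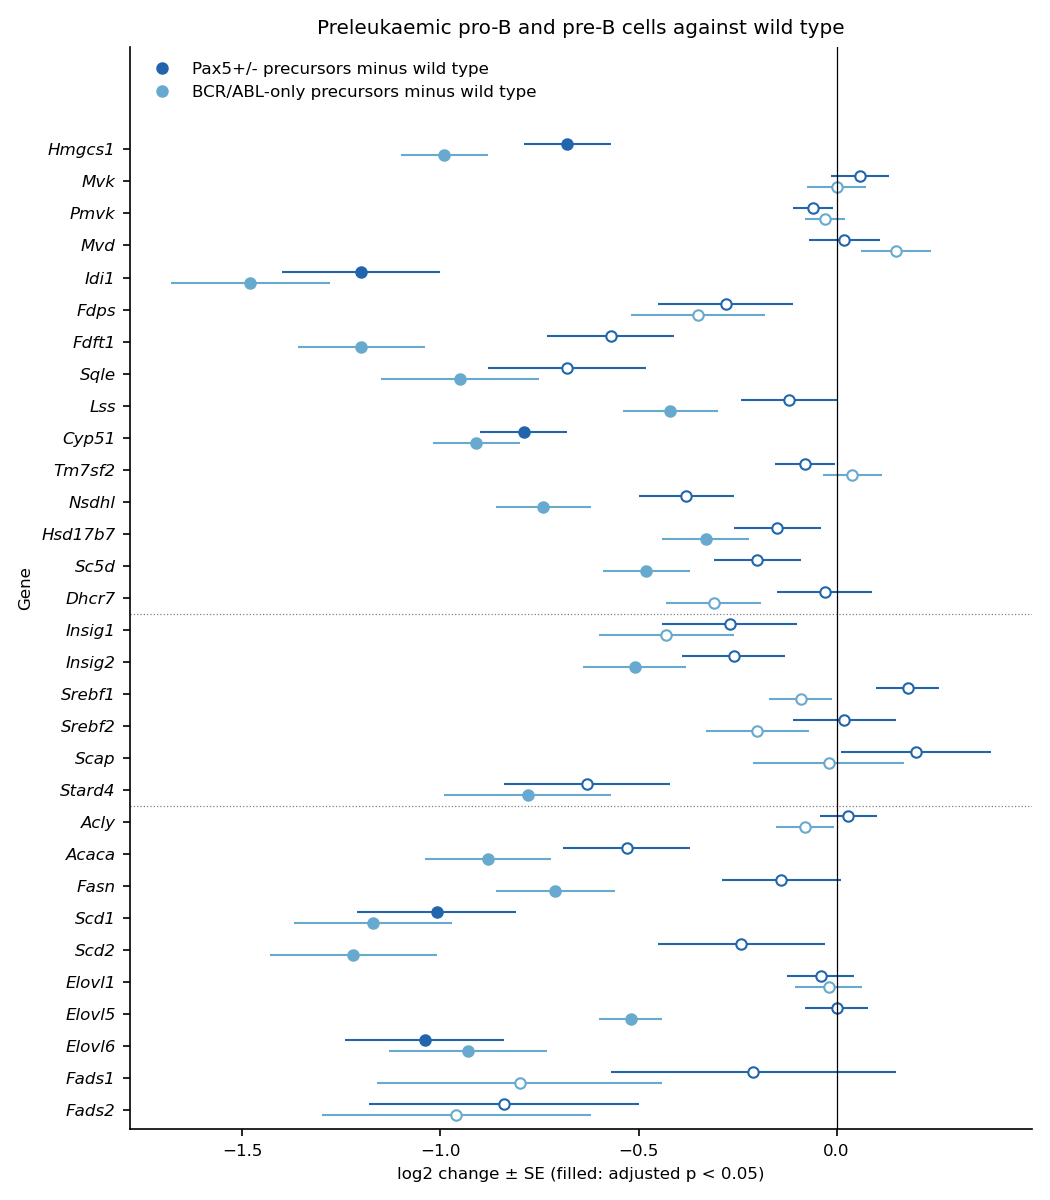
Change of each of the 31 genes in Pax5+/- precursors (dark blue) and BCR/ABL-only precursors (light blue) minus wild-type precursors, in log2 units with SE bars, where filled points are called at an adjusted p under 0.05. Most points lie left of 0, with Idi1 furthest left at -1.20 and -1.48, while Mvk, Pmvk, Mvd and Tm7sf2 lie close to 0.

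Set against each other, the Pax5+/- and BCR/ABL-only precursors gave 0 calls among the 31 genes in limma, with 9 at an unadjusted p under 0.05, where 14.3% of all genes had one. Over all genes 0.015% rose and 0.01% fell. The changes, Pax5+/- minus BCR/ABL-only, were positive for 26 of 31, and the median was 0.23. Elovl5 had 10.79, 10.81 and 10.73 in the Pax5+/- precursors, against 10.21, 10.44 and 10.13 in the BCR/ABL-only precursors, and changed by 0.52 ± 0.0842 (adjusted p = 0.112), the smallest of the 31. Scd2 changed by 0.98 ± 0.22 (adjusted p = 0.161), Fdft1 by 0.62 ± 0.17 (adjusted p = 0.188) and Fasn by 0.57 ± 0.16 (adjusted p = 0.198). So the unequal counts of calls against wild type came without a called difference between the 2 genotypes.

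Leukaemic marrow was also set against precursors of the same genotype. These contrasts cross the 2 sets, and stage, cell preparation and any difference in handling cannot be told apart. In the BCR/ABL-only mice 16 of the 31 genes were higher in leukaemia, where 18.1% of all genes rose, and 0 were lower, where 27.6% of all genes fell. They were 9 of 15 sterol enzymes, 6 of 10 fatty acid enzymes and Srebf1. The median was 0.60, against -0.078 over all genes.

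Idi1 had 8.77 and 9.67 in the BCR/ABL-only leukaemias, against 7.13, 7.56 and 6.81 in the BCR/ABL-only precursors, and changed by 2.05 ± 0.36 (adjusted p = 0.000235). Acaca had 9.20 and 9.72, against 8.07, 7.77 and 7.32 in the precursors, a change of 1.74 ± 0.31 (adjusted p = 0.000269). Nsdhl had 9.58 and 9.54, against 8.40, 8.73 and 8.28 in the precursors, a change of 1.09 ± 0.21 (adjusted p = 0.000459). All 3 were apart between the groups. Fads1 had 10.70 and 10.49 in the BCR/ABL-only leukaemias, against 9.03, 9.29 and 7.99 in the precursors, a change of 1.82 ± 0.34 (adjusted p = 0.000417), and Fads2 changed by 1.98 ± 0.38 (adjusted p = 0.000521).

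Idi1, Acaca, Nsdhl, Fads1, Fads2, Fdft1 (1.57 ± 0.37), Sqle (1.84 ± 0.45), Fdps (1.24 ± 0.29) and Elovl1 (0.72 ± 0.15) stayed called with any array left out. Without leukaemia 2 the count was 11, which included Scap (-0.76, adjusted p = 0.0326) and Elovl6 (-1.40, adjusted p = 0.0489) as lower, and Srebf1 (0.44 ± 0.14 with all arrays, 0.19 without, adjusted p = 0.37), Hmgcs1 (1.19 ± 0.30 with all arrays, 0.50 without, adjusted p = 0.174), Lss, Cyp51, Dhcr7, Fasn and Elovl5 lost their calls. Without leukaemia 1 the count was 19, with Srebf2 (1.09, adjusted p = 0.0151), Scd2 (2.08, adjusted p = 0.014) and Mvk (0.45, adjusted p = 0.0162) added. Stard4 was added without precursor 1 (adjusted p = 0.0256). Cyp51 was also lost without precursor 3, Elovl5 without precursor 1 or 3 and Dhcr7 without any precursor. Insig1, Insig2, Srebf2 and Scap were not called, with changes between -0.23 and 0.56. Of 14 cell cycle genes 7 rose, as did 7 of 12 neutrophil, 8 of 11 macrophage and 8 of 10 stromal markers, while 7 of 9 B lineage markers fell. In the opposite direction, 1 stromal and endothelial marker, Pecam1, fell and 1 B lineage marker, Bank1, rose. Also 4 of 5 megakaryocyte and 2 of 6 erythroid markers rose, and of 7 adipocyte markers Fabp4 (3.66 ± 0.59) and Adipoq (1.90 ± 0.39) rose, with a list mean of 7.32 and 6.55 in the BCR/ABL-only leukaemias, against 6.17 to 6.29 in the precursors. The part of these signals was not tested. Median centring and cyclic loess gave 13 higher each, array weights 10 and the compared groups alone 7. Array weights lost Fdft1 (adjusted p = 0.051) and Fdps (0.055) among others, and the compared groups alone lost Elovl1 (0.0543) and Fads1 (0.055) among others.

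In the Pax5+/- mice 8 of the 31 genes were higher in leukaemia than in precursors, where 16.4% of all genes rose, and 1 was lower, where 28.4% of all genes fell. The fatty acid enzymes Fads2, Fads1, Acaca, Elovl1 and Fasn and the sterol enzymes Idi1, Sqle and Cyp51 rose, and Insig1 fell. The median was 0.13, against -0.076 over all genes. Median centring moved the all-gene median by -0.11 here and gave 8 higher and 4 lower.

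Fads2 had 11.05, 11.23 and 11.61 (lowest, median and highest) in the Pax5+/- leukaemias, against 9.51, 9.57 and 8.05 in the Pax5+/- precursors, and changed by 2.24 ± 0.29 (adjusted p = 8.17e-06). Fads1 had 10.44, 10.58 and 11.19, against 9.72, 9.85 and 8.53 in the precursors, a change of 1.37 ± 0.26 (adjusted p = 0.000367). Precursor 3 was low for both genes, and the leukaemias lay above all 3 precursors. Idi1 changed by 1.40 ± 0.27 (adjusted p = 0.000483) and Acaca by 1.12 ± 0.23 (adjusted p = 0.000876). Insig1 had 8.69, 9.5 and 9.78 in the Pax5+/- leukaemias, against 10.28, 10.37 and 9.98 in the precursors, a change of -0.91 ± 0.23 (adjusted p = 0.00361). Srebf2 changed by 0.54 ± 0.22 (adjusted p = 0.0546), Srebf1 by -0.08 ± 0.11, Scap by 0.13 ± 0.21 and Insig2 by -0.18 ± 0.10.

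Sqle (0.99 ± 0.34, adjusted p = 0.0227), Fasn (0.96 ± 0.28, adjusted p = 0.00872) and Cyp51 (0.83 ± 0.29, adjusted p = 0.0283) lost their calls without Pax5+/- precursor 3, with adjusted p of 0.143 for Sqle, 0.0592 for Fasn and up to 0.0987 for Cyp51, which was also lost without precursor 2. Without leukaemia 1, 3 or 4 or precursor 1, Srebf2 was called (0.58 to 0.67, adjusted p 0.0197 to 0.0496). Without leukaemia 3 or 6, Scd1 was called lower (-1.65 to -1.46, adjusted p 0.0107 to 0.047), against -1.32 ± 0.57 with all arrays (adjusted p = 0.065). Without precursor 2, Insig2 was called lower (-0.33, adjusted p = 0.0161). Macrophage markers moved along, 10 of 11 of them higher, as did 8 of 10 stromal markers, 4 of 5 megakaryocyte markers and 4 of 14 cell cycle genes. Of 8 T and NK markers 2, Cd4 and Cd3g, rose as well. Of 9 B lineage markers 7 fell and 1, Bank1, rose, and 1 stromal and endothelial marker, Pecam1, fell. Of 7 adipocyte markers 1, Fabp4, rose and 2 fell. The part of these signals was not tested.

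**Figure D4:**
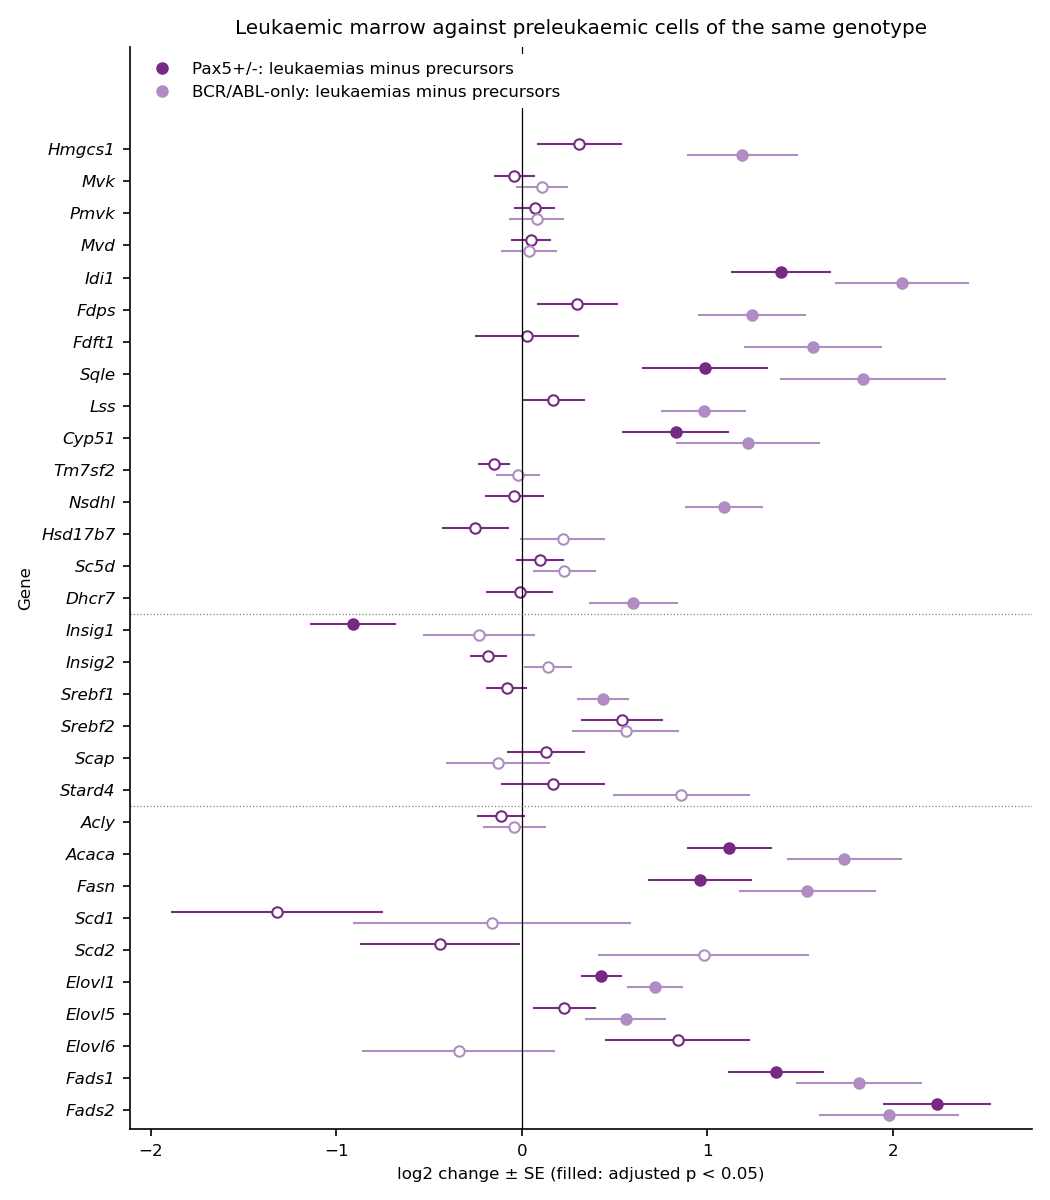
Change of each of the 31 genes in leukaemic marrow minus precursors of the same genotype, for Pax5+/- mice (dark purple) and BCR/ABL-only mice (light purple), in log2 units with SE bars, where filled points are called at an adjusted p under 0.05. The BCR/ABL-only points lie to the right of the Pax5+/- points for 27 of the 31 genes, and Insig1 in Pax5+/- mice is the 1 gene called lower.

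Whether the difference between genotypes changed with stage was tested directly, as Pax5+/- minus BCR/ABL-only in leukaemia less the same difference in precursors. Of the 31 genes 1 was called, Nsdhl, where 0.466% of all genes were called lower and 0.226% higher, and 27 of 31 values were negative with a median of -0.47. Nsdhl had 8.46, 8.80 and 9.36 (lowest, median and highest) in the Pax5+/- leukaemias and 9.58 and 9.54 in the BCR/ABL-only leukaemias, while it had 8.70, 8.76 and 9.04 in the Pax5+/- precursors and 8.40, 8.73 and 8.28 in the BCR/ABL-only precursors. The difference between genotypes was negative in leukaemia (-0.76 ± 0.20, adjusted p = 0.0868) and positive in precursors (0.36 ± 0.12, adjusted p = 0.263). Neither was called, so a turn in the order of the genotypes was not shown. The interaction was -1.12 ± 0.26 (adjusted p = 0.0476). The call was lost without any 1 of 9 of the 15 arrays, namely Pax5+/- leukaemia 1 or 4, BCR/ABL-only leukaemia 1 or any precursor (adjusted p 0.0565 to 0.139). It was also lost with cyclic loess (0.0692), array weights (0.331), a spread following intensity (0.0548), the compared groups alone (0.285) and the replicate block (0.0702). Nsdhl lies on the X chromosome, and the groups were of mixed or unlike sex by Xist. Xist was above a level of 10 on 3 of 7 Pax5+/- and 1 of 2 BCR/ABL-only leukaemias. Among precursors it was above 10 on 1 of 3 Pax5+/- and 0 of 3 BCR/ABL-only arrays. Of 12 neutrophil markers 3 were called lower in the same test. The part of either was not tested. Fdft1 (-1.54 ± 0.46, adjusted p = 0.135) and Srebf1 (-0.52 ± 0.18, adjusted p = 0.206) were not called. Without BCR/ABL-only leukaemia 1, Hmgcs1 (-1.58, adjusted p = 0.0167) and Srebf1 (-0.77, adjusted p = 0.0422) were called, and without BCR/ABL-only leukaemia 2, Elovl6 was (2.24, adjusted p = 0.0356).

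Wild-type B220+ cells and wild-type precursors differed in the desaturases themselves. In B220+ cells Scd1 and Elovl1 rose and Fads2, Idi1 and Fads1 fell against wild-type precursors, which is 2 higher, where 4.57% of all genes rose, and 3 lower, where 4.26% of all genes fell. The median was -0.09, against 0.004 over all genes. Scd1 had 12.31, 12.59, 12.56, 12.49 and 12.39 in B220+ cells, against 10.27, 10.16, 9.88 and 10.66 in wild-type precursors (2.22 ± 0.55, adjusted p = 0.0133). Fads2 had 8.54, 7.96, 8.09, 9.19 and 8.57, against 10.03, 9.74, 9.85 and 9.90 in wild-type precursors (-1.41 ± 0.28, adjusted p = 0.00244). Both stayed called with any array left out. Idi1 (-0.99 ± 0.26) was lost without B220+ array 2 or 3 or wild-type precursor 2 or 3, Elovl1 (0.41 ± 0.11) without wild-type precursor 2 or 3, and Fads1 (-0.88 ± 0.25) without any array but B220+ array 5, with adjusted p from 0.0516 to 0.105. The count then fell to 3 without B220+ array 2 or 3 and to 2 without wild-type precursor 2 or 3. With array weights, or with the compared groups alone, 17 of the 31 were called, 6 higher and 11 lower. The shares of all genes above are those of the main fit, and those under these settings are not given here. Both settings added Hmgcs1, Sqle, Cyp51, Sc5d, Insig1, Stard4, Acaca and Elovl6 as lower and Mvd, Srebf1, Srebf2 and Acly as higher. In this contrast 14 of 14 cell cycle genes were lower in B220+ cells, 3 of 9 B lineage markers were higher and 1 of 8 T and NK markers was lower, and their part was not tested.

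Against wild-type precursors, the Pax5+/- leukaemias kept higher Fads2 and Fads1 and lower Scd1, Insig1 and Insig2. Of the 31 genes 6 were higher, where 12.7% of all genes rose, and 5 lower, where 19.6% of all genes fell, with a median of 0.01 against -0.05 over all genes. Fads2 had 11.05, 11.23 and 11.61 in the Pax5+/- leukaemias, all above the highest wild-type precursor at 10.03, and changed by 1.40 ± 0.26 (adjusted p = 0.000445). Fads1 changed by 1.17 ± 0.23 (adjusted p = 0.000833), and Scd1 by -2.33 ± 0.52 (adjusted p = 0.0019). Insig1 had 8.69, 9.5 and 9.78, below 10.24, 10.35, 10.61 and 10.73 in wild-type precursors, a change of -1.18 ± 0.21 (adjusted p = 0.000231), and Insig2 changed by -0.44 ± 0.0921 (adjusted p = 0.00118). These 5 calls held with any array left out, as did those of Elovl1 (0.40 ± 0.0999) and Fasn (0.82 ± 0.25). Fasn lost its call with the compared groups alone (adjusted p = 0.0501) and with the replicate block (adjusted p = 0.0543).

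Among sterol enzymes 0 were higher in this contrast and 2 lower, Nsdhl (-0.42 ± 0.14) and Tm7sf2 (-0.23 ± 0.0797). Idi1 and Sqle, which rose against B220+ cells and against precursors of the same genotype, were not called. Srebf2 (0.56 ± 0.20, adjusted p = 0.0389) and Acaca (0.59 ± 0.21, adjusted p = 0.0378) were each lost without any of 8 arrays, wild-type arrays 1 to 4 among them, Tm7sf2 without any of 7 and Nsdhl without any of 6 (adjusted p 0.052 to 0.102 over the 4 genes). Without wild-type array 2 or 3 the count was 7, as it was with the compared groups alone. Median centring gave 4 higher and 7 lower. Srebf1 (0.10 ± 0.098) and Scap (0.33 ± 0.19) were not called. In this contrast 9 of 11 macrophage, 8 of 10 stromal and 5 of 5 megakaryocyte markers and Fabp4 rose and 7 of 9 B lineage markers fell. One of the stromal and endothelial markers, Pecam1, fell. Of 14 cell cycle genes 0 rose and 3 fell, and of 8 T and NK markers 1 rose and 2 fell. The part of these signals was not tested.

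**Figure D5:**
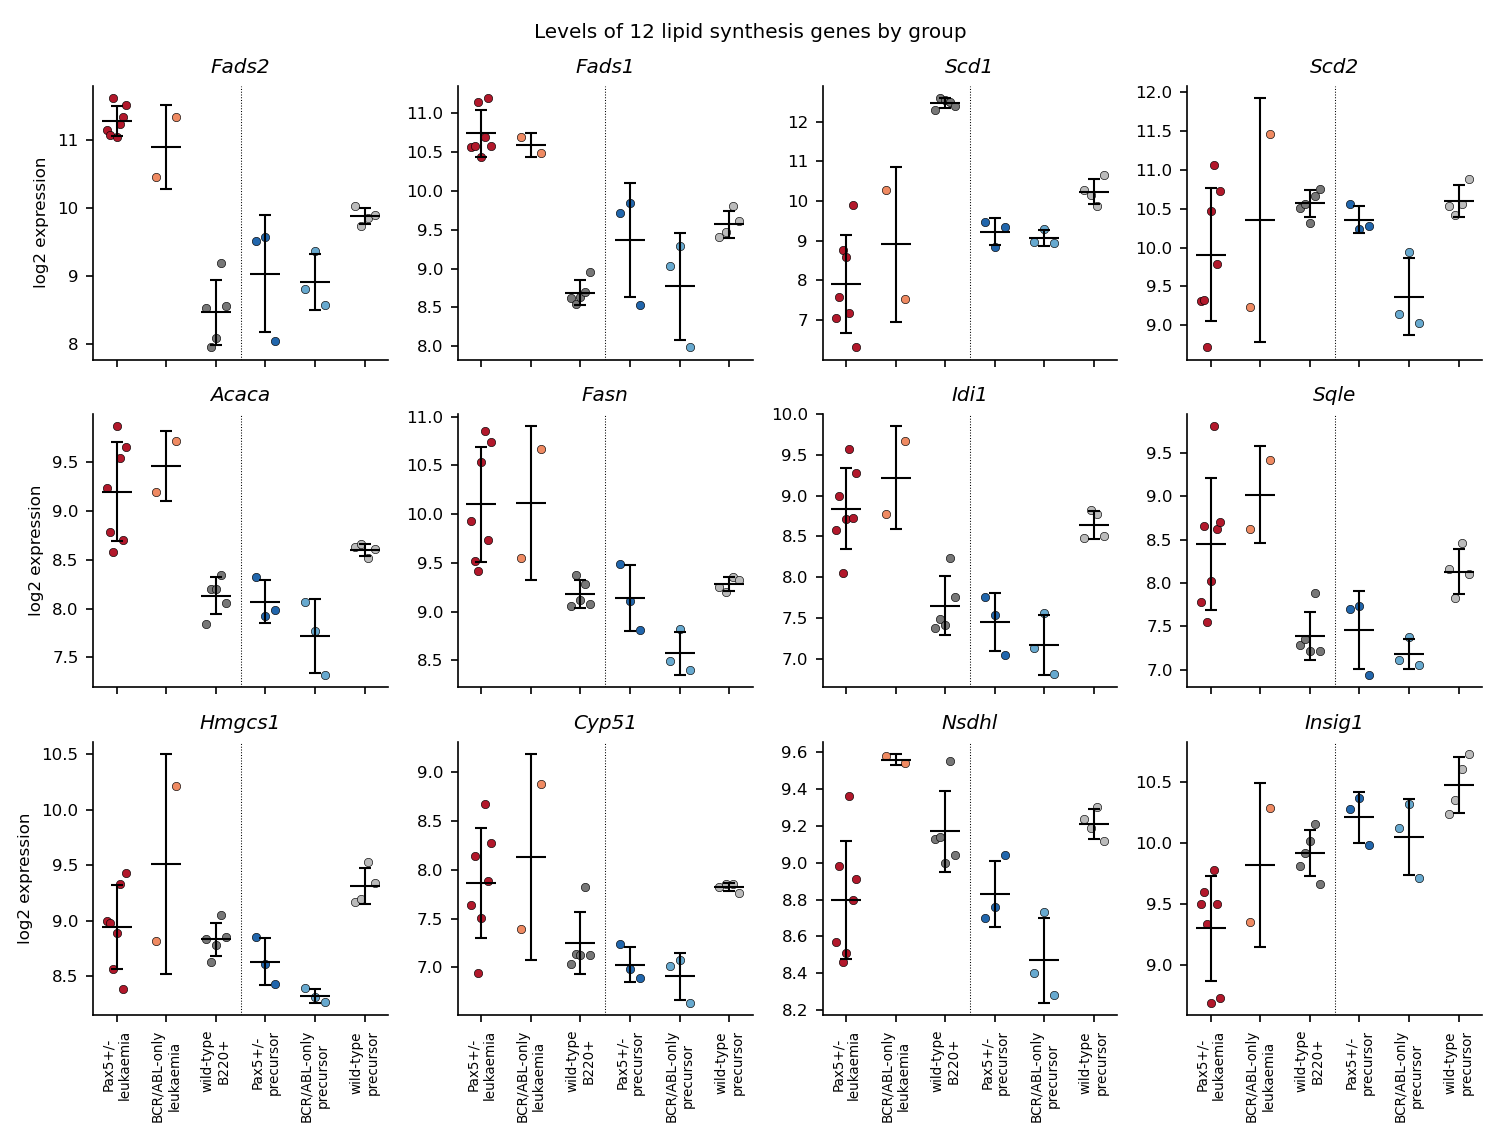
Log2 level of 12 of the genes in the 6 groups, with 1 point per array and the mean ± SD as bars (n = 7, 2, 5, 3, 3 and 4 from left to right), leukaemia set left and precursor set right of the dotted line. Fads1 and Fads2 are highest in the leukaemias, Scd1 is highest in B220+ cells, and Idi1, Sqle, Hmgcs1 and Cyp51 are lower in both oncogene-bearing precursor groups than in wild-type precursors.

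The genes also varied together inside groups. After removing group means, the mean pairwise correlation over the 24 arrays was 0.38 among the 15 sterol enzymes, 0.168 among the 10 fatty acid enzymes, 0.203 among the 6 regulators and carriers and 0.27 among all 31, against 0.0168 among all genes. The highest pairs were Fasn with Scd2 (0.916), Idi1 with Cyp51 (0.914) and Lss with Cyp51 (0.902). Pmvk and Scd1 ran the other way, with -0.715 for Pmvk and Cyp51 and -0.858 for Hmgcs1 and Scd1. Elovl1 was mixed, with -0.645 for Acaca and -0.612 for Elovl6 but 0.514 for Scd1 and 0.486 for Fdft1. The arrays share a scaling and differ in cell makeup, and the leukaemias spread most, so these values describe the arrays and carry no test.

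Neighbouring steps outside the group were read from lists of sterol, uptake and fatty acid genes. Msmo1, the methylsterol oxidase that acts after Cyp51, fell in the Pax5+/- precursors (-0.84 ± 0.19, adjusted p = 0.0424) and in the BCR/ABL-only precursors (-1.14 ± 0.19, adjusted p = 0.00539). Of the 6 sterol and isoprenoid genes measured, 0 rose and 2 fell in the BCR/ABL-only precursors, and 0 rose and 1 fell in the Pax5+/- precursors. Of 11 genes of sterol uptake, efflux and esterification, 0 rose in either precursor group, 3 fell in the BCR/ABL-only precursors (15.5% of all genes did) and 1 in the Pax5+/- precursors (2.94% of all genes did). Npc1, which moves cholesterol out of lysosomes, changed by -1.05 ± 0.17 (adjusted p = 0.00501) in the BCR/ABL-only and by -0.73 ± 0.17 (adjusted p = 0.0484) in the Pax5+/- precursors, set against the same wild-type arrays.

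Against B220+ cells, 4 of these 11 genes rose and 2 fell in the Pax5+/- leukaemias, and 2 rose and 3 fell in the BCR/ABL-only leukaemias. Scarb1, the receptor for high-density lipoprotein, rose by 1.19 ± 0.13 (adjusted p = 2.76e-05) in the Pax5+/- leukaemias, and Mylip, the ligase that degrades the LDL receptor, changed by -2.52 ± 0.26 (adjusted p = 1.75e-05). Apoe, abundant in macrophages, rose by 1.94 ± 0.32 (adjusted p = 0.000577). Of 25 further fatty acid genes, 7 rose and 4 fell in the Pax5+/- leukaemias, and 8 rose and 2 fell in the BCR/ABL-only leukaemias. Over all genes 12.9% rose and 18.9% fell in the Pax5+/- leukaemias, and 9.48% rose and 11.9% fell in the BCR/ABL-only leukaemias, and the fatty acid genes that fell are near or under those shares. Elovl7, an elongase, rose by 3.08 ± 0.36 (adjusted p = 4.36e-05) and Acsl5, an acyl-CoA synthetase, by 0.90 ± 0.0839 (adjusted p = 8.54e-06) in the Pax5+/- leukaemias, where Gpam, the first enzyme of glycerolipid synthesis, changed by -2.83 ± 0.22 (adjusted p = 2.24e-06).

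Genes that act on SREBP or beside it were read in the same way. Of 12 measured, 0 rose and 6 fell in the Pax5+/- leukaemias against B220+ cells, and 0 rose and 3 fell in the BCR/ABL-only leukaemias (18.9% and 11.9% of all genes fell). In the BCR/ABL-only precursors 0 rose and 3 fell, and in the Pax5+/- precursors 0 rose and 2 fell (15.5% and 2.94% of all genes fell). In the Pax5+/- leukaemias against their precursors 1 rose and 3 fell, Akt1, Nfyc and Sp1 (16.4% and 28.4% of all genes). Against wild-type precursors 1 rose and 5 fell, Nfyc, Nfyb and Mtor among them (12.7% and 19.6% of all genes). In the BCR/ABL-only leukaemias against their precursors 2 rose and 2 fell, Akt1 and Mtor (18.1% and 27.6% of all genes). Ube2g2, a ubiquitin-conjugating enzyme, rose in the Pax5+/- leukaemias against their precursors (0.33 ± 0.13, adjusted p = 0.041) and against wild-type precursors (0.42 ± 0.12, adjusted p = 0.00904). In the BCR/ABL-only leukaemias against their precursors Ube2g2 (0.50 ± 0.17, adjusted p = 0.0218) and Rnf139, a ubiquitin ligase (0.75 ± 0.29, adjusted p = 0.0404), rose. Nfyb, a subunit of the CCAAT-binding factor NF-Y, fell by 1.00 ± 0.12 on the log2 scale (adjusted p = 0.00265) in the BCR/ABL-only and by 0.69 ± 0.12 (adjusted p = 0.0228) in the Pax5+/- precursors.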

How the data were processed

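Total RNA of 24 mouse samples, extracted with Trizol per the labels' protocols, was labelled with biotin and measured on Affymetrix mouse gene arrays. The values are the deposited log2 expression per probe set, which the authors made by RMA through oligo, an R package, per the submitters' processing notes. The sources used here give neither its version nor if the 24 arrays were normalized jointly. The table held 35556 probe sets. Of these 21789 carried 1 gene symbol in the platform annotation, 1621 several and 12146 none, and the probe sets with 1 symbol gave 19938 genes, each read on its brightest probe set. RefSeq identifiers (GRCm38.p6) matched 21698 probe sets.

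Groups follow the sample titles. Under R 4.3.3, limma 3.58.1 fitted the changes (lmFit, contrasts.fit and eBayes, two-sided), and p-values were adjusted over all genes by Benjamini-Hochberg at a threshold of 0.05. The leukaemia set (14 arrays) and the precursor set (10) were fitted apart, and contrasts across sets on all 24. No dim gene was left out. The fit was tested on simulated data. The genes, the 13 related and marker lists and the comparisons were chosen with earlier results of these data known. Array values were given, per comparison, for up to 4 genes higher and 4 lower with the smallest adjusted p and for the SREBP regulators, and the others by changes and counts. List genes were named, at most 3 a list, where called.

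Same-numbered Pax5+/- and BCR/ABL-only precursors deviated together from their group means (correlations 0.208 to 0.25 in all 3 pairs, above the limit of 0.1). BCR/ABL-only leukaemias and precursors of the same number did so too (0.167 to 0.183 in 2 of 2 pairs). In every other combination of groups only some same-numbered arrays, or none, passed the limit. No label speaks of a litter or a day in common. All main fits were unpaired, and the replicate number was a block only as an alternative. Alternatives were median centring, cyclic loess, a dim filter, the mean of probe sets, array weights, a spread following intensity, the compared groups alone, the replicate block and each array left out.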

Additional observations from a re-analysis of the deposited data

Results flagged for a closer look

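In groups of 4 to 7 arrays, 6 of 93 tests for a single array far from its group passed Dixon's criterion, where chance gives about 1 in 20. B220+ array 4 stood above the other B220+ arrays for Sqle (7.89), Cyp51 (7.82) and Nsdhl (9.55), which are 3 sterol enzymes on 1 array. B220+ array 1 stood below the others for Insig2 (8.73). Among wild-type precursors, array 2 was low for Fdps (8.56) and array 3 high for Elovl5 (10.90).

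The difference between Pax5+/- and BCR/ABL-only mice in Nsdhl differed between leukaemia and precursors by -1.12 ± 0.26 (limma interaction, adjusted p = 0.0476). The call was lost under 5 alternatives, with adjusted p from 0.0548 to 0.331, and without any 1 of 9 of the 15 arrays (0.0565 to 0.139).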

How the results depend on the processing

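The count of called genes among the 31 kept within 1.5 times its value under median centring, the dim filter and the mean of probe sets in all 11 comparisons, and 0 called genes changed direction under any alternative. Array weights gave 3 calls for BCR/ABL-only leukaemias against B220+ cells, 11 for Pax5+/- precursors and 17 for B220+ cells against wild-type precursors, 1 between the oncogene-bearing precursors and 10 for BCR/ABL-only leukaemias against their precursors. Fitting the compared groups alone gave 7 for BCR/ABL-only leukaemias against their precursors, 7 for Pax5+/- leukaemias and 17 for B220+ cells against wild-type precursors. Shares of all genes are given for the main fit alone, so these counts stand without the share under their own setting. The interaction had 0 calls under cyclic loess, array weights, a spread following intensity, the groups alone and the replicate block. With the replicate number as a block, Pax5+/- precursors against wild type had 2 calls, without Hmgcs1 (adjusted p = 0.0699), Scd1 (0.0766) and Elovl6 (0.0621). Numbers did not pair the Pax5+/- precursors with the wild-type arrays (correlations -0.131 to 0.0376). The contrast between oncogene-bearing precursors kept 0 calls with this block. The cause was not tested.

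With 1 array left out, calls ranged from 6 to 11 and 4 to 8 for Pax5+/- and BCR/ABL-only leukaemias against B220+ cells, 0 to 2 between leukaemias, 0 to 6 and 13 to 17 for Pax5+/- and BCR/ABL-only precursors against wild type, and 0 to 0 between them. They ranged from 6 to 11 and 11 to 19 for leukaemias against precursors of the Pax5+/- and BCR/ABL-only mice, 7 to 11 for Pax5+/- leukaemias and 2 to 5 for B220+ cells against wild-type precursors, and 0 to 2 for the interaction. The number of arrays, 2 in the smallest group, limits what could be called.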
